A study of Mus musculus with 75 samples.

Results

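Described here are 9 genes that set up and accompany mouse germ cell fate, followed through 75 libraries: the transcriptional regulators Prdm1, Prdm14 and Tfap2c, the developmental pluripotency-associated genes Dppa2, Dppa4 and Dppa3, and Lin28a, Tcl1 and Sox15. They were chosen by name, and all 9 were among the 26218 gene rows of the deposited table. The study, whose title names bone morphogenetic protein and retinoic acid as factors that specify female germ cell fate, measured messenger RNA by a 3′-end method (SC3-seq) from 1 ng of RNA. Values are RPM, reads scaled to a fixed library total, as the authors deposited them.

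The embryonic libraries came from ICR:C57BL/6=1:1 embryos, 2 libraries per group. Germ cells of E9.5, E10.5 and E11.5 (sexes not separated) and of each sex at E12.5 and E13.5 carried Dppa3-EGFP Tg/0 and were sorted as GFP-positive cells. Germ cells of each sex at E14.5 and E15.5 carried Ddx4-RFP Tg/0 and were sorted as RFP-positive cells. Dppa3 is thus both a measured gene and the source of the sorting reporter up to E13.5, and any step from E13.5 to E14.5 also changes the reporter, so stage and reporter cannot be told apart there.

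The cultured cells were primordial germ cell-like cells (PGCLCs) made from embryonic stem cells. They carried Prdm1-mVenus Tg/0 and Dppa3-ECFP Tg/0 in every line, so that Prdm1 and Dppa3 gave the reporters. Day 0 cells were sorted as BV-positive and cultured cells as SC-positive, terms the labels do not spell out, and culture was on mitomycin-treated m220 feeder cells with Forskolin and Rolipram in all groups. Cells of the 129S1:C57BL/6=1:1 line were taken at day 0, at day 3 (CT) and at days 5, 7 and 9 under the conditions CT, RA and RB, 2 libraries each. A further single library (0R3B, day 9) had no replicate. The factors for the female fate were given from day 3, and the labels do not spell out CT, RA, RB or 0R3B.

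A line of DBA/2:C57BL/6=1:1 was compared with Stra8-/- cells of that background at CT day 3 and RB days 5, 7 and 9. There were 2 wild-type libraries and 4 knockout libraries a day, the latter from the lines SK1 (2 libraries), SK2 and SK3. Another 6 libraries, 1 per condition, came from a C57BL/6 line that also carried Gtrosa26tm1Sor/0. The labels do not say that replicates were separate animals or cultures, so a p-value here speaks only of the spread among these libraries, which may be technical.

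Primordial germ cells arise in the early embryo when bone morphogenetic protein signals induce Prdm1 (also called Blimp1, a zinc-finger repressor) and Prdm14 (a PR-domain regulator). With Tfap2c (the AP-2 gamma factor) these shut down somatic genes and re-establish a pluripotency-like programme. The cells then migrate to the gonad and divide, and female cells enter meiosis while male cells arrest and become prospermatogonia. Dppa3 (Stella) is a classic marker of the lineage whose maternal protein protects DNA methylation after fertilisation, and Dppa2 and Dppa4 encode partner proteins with an SAP domain that keep chromatin open at early embryonic genes. Lin28a encodes an RNA-binding protein that blocks let-7 maturation, Tcl1 a co-activator of the kinase Akt, and Sox15 an SRY-related factor.

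Depth, estimated from the RPM of 1 read, was 1.08 M to 15.6 M reads per library (median 3.12 M, M standing for 1e+06), so that 3 reads, the smallest amount taken as measured, were worth 0.192 to 2.78 RPM. All but Dppa3 had values equal to a whole number of reads in 75 of 75 libraries (tolerance 0.05 reads). Dppa3 did so in 57 of 75, and the cause was not tested. Replicates correlated at 0.978 to 0.993 over all genes on the log2 scale. Germ cell markers (Ddx4, Dazl, Dnd1, Kit, Mael) were detected in every group.

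In the RefSeq annotation of GRCm38 (mm10), Prdm1 lies at chr10:44437174-44528558, Prdm14 at chr1:13113428-13127163, Tfap2c at chr2:172545678-172558622, Dppa3 at chr6:122626424-122630271 and Lin28a at chr4:134003330-134019196. Dppa4 (chr16:48283735-48294292) and Dppa2 (chr16:48310274-48319513) are neighbours, 15981 bases apart. Tcl1 is at chr12:105216753-105222737 and Sox15 at chr11:69655037-69656727. The 250 bases before the annotated start of Sox15 (plus strand, chr11:69654787-69655036) and Tcl1 (minus strand, chr12:105222738-105222987) are shown, from RefSeq GRCm38.p6. Of the genes described, only these had an available window that ended at the annotated gene start. Sox15 and Tcl1 differed by -2.59 and -2.94 under RB at day 9 and by -3.95 and -1.44 in males at E14.5. A link between the windows and these differences was not tested. Capitals mark the GC box GGGCGG, here on the opposite strand and so read as CCGCCC.
Sox15: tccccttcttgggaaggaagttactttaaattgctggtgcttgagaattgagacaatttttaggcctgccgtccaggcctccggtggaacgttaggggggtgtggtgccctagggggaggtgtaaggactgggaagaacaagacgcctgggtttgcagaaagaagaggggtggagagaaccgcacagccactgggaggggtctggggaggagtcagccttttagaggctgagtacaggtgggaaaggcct
Tcl1: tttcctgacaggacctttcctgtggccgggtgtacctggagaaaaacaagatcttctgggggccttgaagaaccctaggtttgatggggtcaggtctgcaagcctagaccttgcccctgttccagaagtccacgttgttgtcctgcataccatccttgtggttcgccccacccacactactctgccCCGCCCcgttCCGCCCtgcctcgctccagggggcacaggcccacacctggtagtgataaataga

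The Tcl1 window held 2 GC boxes, starting 64 and 54 bases before the start site, and 32.7% of 32851 promoter windows of this length held at least 1. Neither window matched the octamer ATGCAAAT (1.60% of windows), the AP-2 motif GCCNNNGGC (13.7%), the E-box CACGTG (6.02%) or TATAAA (12.4%), searched on both strands. Sox15 had 5 CpG in its window and Tcl1 had 7, beside a median of 6 over all windows.

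Across the 30 groups with at least 2 libraries, all 9 genes had their lowest mean in E15.5 female germ cells. The highest means lay in different places. Prdm1 and Tfap2c were highest in day 0 PGCLCs of the 129S1:C57BL/6 line (128.4 ± 0.118 and 247.2 ± 25.6 RPM, SD, n = 2 libraries). Prdm14 (121.7 ± 8.85 RPM) and Sox15 (170.5 ± 13.2 RPM) were highest in knockout PGCLCs at CT day 3 and Dppa2 in knockout cells at RB day 7 (153.6 ± 4.57 RPM), each with n = 4. In each the libraries overlapped the next group: wild-type CT day 3 for Prdm14 and Sox15, knockout RB day 5 for Dppa2. Dppa3 (5500 ± 71.1 RPM) and Tcl1 (202.0 ± 1.16 RPM) were highest in E13.5 males, Dppa4 in E15.5 males (1151 ± 13.4 RPM) and Lin28a in E12.5 females (28.2 ± 4.36 RPM), each with n = 2. When the groups were put in order of level, the libraries of neighbouring groups overlapped in 27 of 29 neighbour pairs for Dppa2 and for Lin28a, 26 for Prdm1, 23 for Prdm14, 21 for Sox15, 19 for Tfap2c, 17 for Dppa4, 16 for Tcl1 and 14 for Dppa3. Most neighbours in the order therefore did not differ beyond their spread in 8 of the genes, Dppa3 being the exception.

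Between E9.5 and E11.5, the days of migration and arrival in the gonad, 3 of the 9 genes rose and none fell. A gene was called changed at a limma adjusted p below 0.05 and an absolute difference of at least 1 in log2(RPM + 1). Of all 12567 genes tested in the embryo, 5.01% were called higher in this comparison. The median difference of the 9 was 0.51, beside 0.02 over all genes tested. In bulk libraries a lower value can come from fewer cells with the transcript or from less of it per cell, and these cannot be told apart.

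Dppa4 stood at 78.0 and 82.4 RPM in the E9.5 libraries, 221 and 260 at E10.5, and 290 and 328 at E11.5. Its neighbour Dppa2 went from 11.7 and 14.7 RPM at E9.5 to 51.4 and 49.4 at E11.5, and was already at 52.0 and 54.0 at E10.5. Tcl1 went from 68.5 and 67.9 RPM to 168 and 183. The differences were 1.93 ± 0.16 (SE) for Dppa4, 1.86 ± 0.29 for Dppa2 and 1.35 ± 0.16 for Tcl1 (adjusted p = 8.15e-09, 4.78e-05 and 1.05e-06). The stages did not overlap in any of the 9 genes, the 6 not called among them, so non-overlap does not set these 3 apart. The share of all genes without overlap was not counted. The specification factors were already present at E9.5 and none of them was called. Prdm1 went from 68.5 ± 2.21 to 53.7 ± 4.74 RPM, Prdm14 from 79.4 ± 7.73 to 69.8 ± 2.93 and Tfap2c from 165.0 ± 6.00 to 121.2 ± 14.1 (SD, n = 2), with differences of -0.35, -0.18 and -0.45.

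The E9.5 libraries differed from the later ones in their blood RNA: the summed level of 6 blood and endothelial markers was 2994 to 3190 RPM at E9.5 with none of the 6 at 0, mostly from Hbb-y and Hba-x, globins of the embryo. At E11.5 the sum was 114 to 127 RPM, mostly from Pecam1, which germ cells also express, and Ptprc was at 0. The part of this in the differences was not tested.

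**Figure D1:**
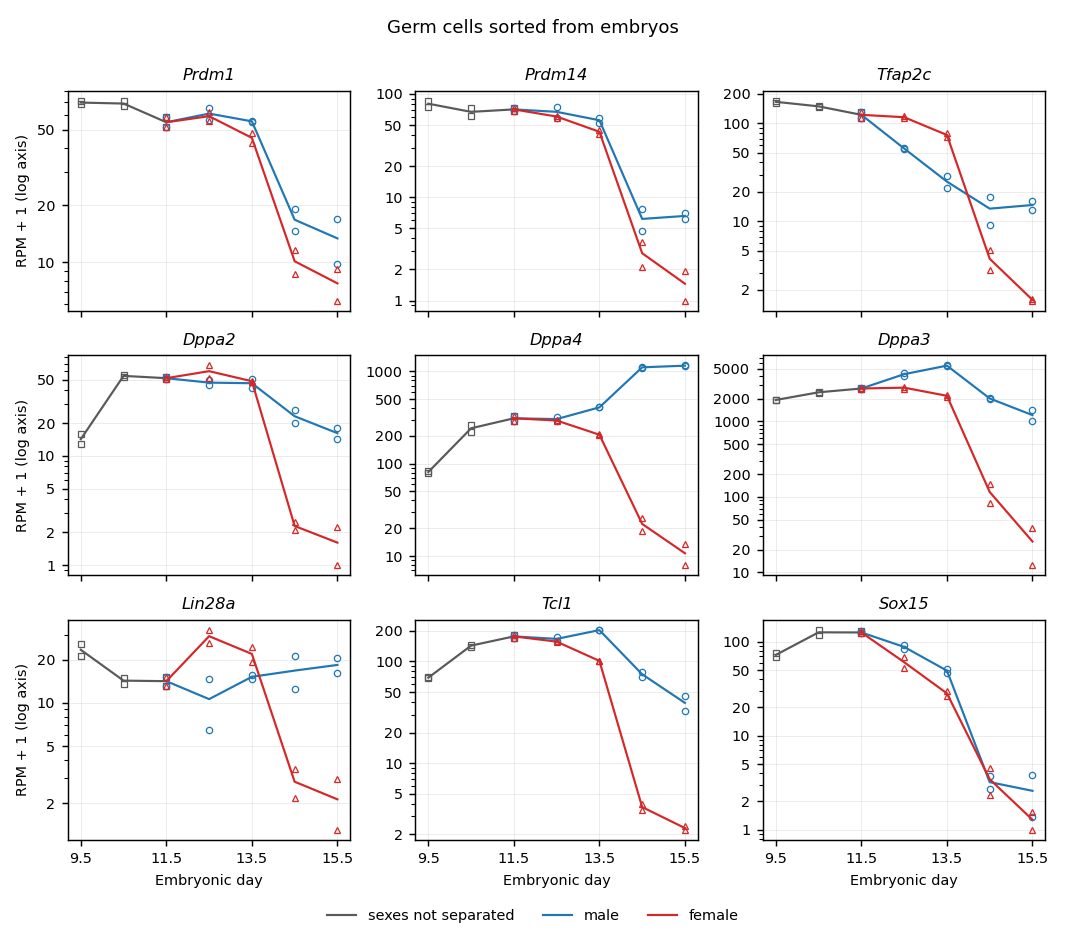
Level of each of the 9 genes in sorted embryonic germ cells against embryonic day, as RPM + 1 on a log axis; symbols are single libraries (2 per group), lines join the group means, and the male and female lines start from the shared E11.5 libraries. Female levels of all 9 genes drop between E13.5 and E14.5, while male Dppa4 climbs to 1105 RPM at E14.5.

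The first calls between the sexes were of Tfap2c and Lin28a. At E12.5, 2 of the 9 genes were higher in females and none was lower, against 3.77% of all genes called higher. The sexes did not overlap in 6 of the 9 at this stage, and the share of all genes without overlap was not counted. Dppa3 was among them, at 2729 and 2887 RPM in females and 4062 and 4411 in males, without a call. Tfap2c stood at 111 and 118 RPM in females and 53.6 and 55.3 in males, a difference of 1.06 ± 0.25 (adjusted p = 0.00691). The call was lost without the first male or the second female library (1.04 and 1.02). It was the male level that moved: from E11.5, at 111 and 131 RPM, Tfap2c fell by 1.14 in males, as 1 of the 9 genes called lower at that step (3.37% of all genes), and stood 0.08 lower in females, without a call. Lin28a stood at 31.3 and 25.1 RPM in females and 13.8 and 5.49 in males (1.57 ± 0.40, adjusted p = 0.0108), and the call was lost without the second male or the first female library (0.98 and 1.42).

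Male Tfap2c fell again by 1.14 to E13.5, where it stood at 27.9 and 21.0 RPM, a call lost without the second library of either stage (-1.11 and -0.94). It was the only one of the 9 called lower at that step, against 1.89% of all genes. At E13.5, 1 of the 9 genes was higher in females (Tfap2c, 1.59 ± 0.25, adjusted p = 4.18e-05; 10.4% of all genes) and 2 were lower (6.31% of all genes). Those 2 were Dppa3 (2128 and 2249 RPM in females, 5449 and 5550 in males; -1.33 ± 0.29) and Tcl1 (101 and 99.7 RPM in females, 201 and 203 in males; -1.005 ± 0.16). Tcl1 lies at the threshold, and without the second male or the second female library it was at -0.999 and -0.998 and not called. Dppa4, at 203 and 206 RPM in females and 407 and 406 in males, did not overlap either but missed the fold threshold (-0.99 ± 0.16).

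In females Sox15 was the 1 gene that changed at each of these early steps. It went from 128 and 122 RPM at E11.5 to 67.8 and 51.4 at E12.5 and 28.8 and 25.6 at E13.5. Its differences were -1.06 ± 0.36 and -1.09 ± 0.36 (adjusted p = 0.0378 and 0.0478). It was 1 of 9 called lower at each step, against 3.44% and 1.14% of all genes. Leaving out any 1 of the 4 libraries ended the call at either step.

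From E13.5 to E14.5 the levels moved widely. In females all 9 fell, against 19% of all genes called lower. The median difference of the 9 was -3.96, beside -0.08 over all genes tested. Tcl1 went from 101 and 99.7 RPM to 2.95 and 2.47, a difference of -4.77 ± 0.16 (adjusted p = 2.42e-16). Dppa2 went from 46.7 and 47.8 RPM to 1.47 and 1.10 (-4.41 ± 0.29). Dppa3 went from 2128 and 2249 RPM to 149 and 81.1 (-4.30 ± 0.29), and Dppa4 from 203 and 206 to 24.7 and 17.8 (-3.23 ± 0.16).

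The specification factors went down with them. Tfap2c, the factor that had stayed high in females, went from 72.4 and 77.9 RPM to 4.12 and 2.19 (-4.23 ± 0.25). Prdm14 went from 40.1 and 43.9 RPM to 2.65 and 1.10 (-3.96 ± 0.30), and Prdm1 from 41.8 and 46.8 to 10.6 and 7.67 (-2.17 ± 0.24). No stage overlapped the other for any of the 9 genes, and the share of all genes without overlap was not counted. The pseudocount of 1 makes the differences of the low genes too small.

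In males 6 of the 9 fell at this step (13.3% of all genes), 1 rose (19%) and 2 were not called. Sox15 went from 45.7 and 50.9 RPM to 2.71 and 1.71 (-3.95 ± 0.36), and Prdm14 from 51.1 and 58.1 to 6.63 and 3.72 (-3.21 ± 0.30). Prdm1 went from 54.9 and 53.8 RPM to 13.6 and 18.0 (-1.73 ± 0.24). Dppa3 fell by 1.45 and Tcl1 by 1.44, each to a level far above the female level, and Dppa2 by 1.01, a value at the threshold that was lost without the second E13.5 library or the first E14.5 library (-0.89 and -0.82). Dppa4 went the other way, from 407 and 406 RPM to 1096 and 1114 (1.44 ± 0.16, adjusted p = 1.35e-07). Tfap2c (-0.98 ± 0.25, adjusted p = 0.00228) missed the fold threshold, and Lin28a had an interval from -0.73 to 0.92.

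The sex difference was then wide. At E14.5, 7 of the 9 genes were lower in females, against 25.9% of all genes called lower, and at E15.5 7 were lower, against 30%. Prdm14 at E14.5 (-1.12) was not called without the first male or the second female library (-0.77 and -0.72). Dppa4 at E15.5 stood at 12.47 and 6.96 RPM in females and 1161 and 1142 in males (-6.80 ± 0.16, adjusted p = 4.31e-20). Dppa3 stood at 37.7 and 11.4 RPM in females and 1411 and 1015 in males (-5.77 ± 0.29). Tcl1 stood at 1.22 and 1.39 RPM in females, 4 and 5 reads, and 44.8 and 31.4 in males (-4.07 ± 0.16).

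At E15.5 Lin28a was -3.22 ± 0.40, Dppa2 -3.43 ± 0.29, Tfap2c -3.21 ± 0.25 and Prdm14 -2.25 ± 0.30. In the female libraries Tfap2c was at 2 reads in each, and Prdm14 and Dppa2 were at 0 in the second library, where the limit set by 3 reads was 0.835 RPM. Prdm1 (-0.76 ± 0.24) and Sox15 (-0.88 ± 0.36) were the 2 genes not called at this stage. Both passed the adjusted p but missed the fold threshold. Sox15 libraries of the sexes overlapped at E14.5 and at E15.5, with all 8 between 0 and 3.53 RPM. Prdm1 was called at E15.5 without the second male or the first female library (-1.15 and -1.04), and Sox15 without the first male or the second female library (-1.62 and -1.19).

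After E14.5 fewer of the 9 were called. From E14.5 to E15.5, 4 of the 9 fell in females (3.45% of all genes): Dppa3 (-2.34), Sox15 (-1.39), Tfap2c (-1.35) and Dppa4 (-1.09). Prdm14 (-0.99995) and Tcl1 (-0.68) passed the adjusted p but missed the fold threshold, and 7 of the 9 had an unadjusted limma p below 0.05. Here too the pseudocount makes the differences of the low genes too small. Dppa4 was not called without the first E14.5 or the second E15.5 library (-0.86 and -0.71), nor Sox15 without the first library of either stage (-0.93 and -1.07). In males 0 of the 9 were called in limma, with 2 at an unadjusted p below 0.05 (Dppa3 and Tcl1), against 1.91% of all genes called either way. The change of the sex difference from E12.5 to E15.5, tested as a contrast of contrasts, was called lower for 7 of the 9 (27.7% of all genes), all but Prdm1 (-0.72) and Sox15 (-0.32). At E14.5 the summed level of 9 gonadal somatic markers was 42.6 to 68.1 RPM in males, with Amh at 0, and 8.22 to 9.13 RPM in females, with Amh, Sox9, Cyp11a1 and Cyp17a1 at 0. That of 7 fibroblast markers was 50.3 to 117 RPM in males and 28.9 to 39.7 in females. Their part in the sex difference was not tested.

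At the start of culture, PGCLCs of the 129S1:C57BL/6 line differed in Tcl1, Dppa4 and Dppa2. Day 0 cells were sorted as BV-positive and day 3 cells as SC-positive. Time in culture and the sorting reporter therefore cannot be told apart at this step, also for Prdm1 and Dppa3, themselves the sources of the reporters. From day 0 to day 3, 3 of the 9 genes rose and none fell (3.03% of 11873 genes were called higher). Tcl1 went from 19.7 and 31.5 RPM to 149 and 181 (2.67 ± 0.20, adjusted p = 4.35e-09), Dppa4 from 68.6 and 57.3 to 268 and 262 (2.06 ± 0.19) and Dppa2 from 19.9 and 15.9 to 53.3 and 49.7 (1.48 ± 0.18). Dppa3 stood at 614 and 639 RPM at day 0 and 1212 and 1251 at day 3, a difference of 0.97 ± 0.13 (adjusted p = 3.52e-05) that missed the fold threshold. The specification factors were not called: Prdm1 differed by -0.21, Prdm14 by 0.36 and Tfap2c by -0.64. From E9.5 to E11.5 in the embryo, where no library is shared with the culture, Tcl1, Dppa4 and Dppa2 differed by 1.35, 1.93 and 1.86. The summed fibroblast markers were 2.05 to 2.54 RPM at day 0 and 50.0 to 61.5 RPM at day 3, on feeder cells, and their part was not tested.

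Under CT little moved after day 3. From CT day 3 to CT day 9, 0 of the 9 were called in limma (3 at an unadjusted p below 0.05: Dppa2, Dppa3 and Sox15), against 2.25% of all genes called either way. Sox15 moved most, from 137 and 132 RPM to 71.7 and 75.7, and missed the fold threshold (-0.86 ± 0.19, adjusted p = 0.0113). At CT day 9 Prdm1 stood at 109 and 115 RPM, Prdm14 at 85.5 and 107, Tfap2c at 155 and 184 and Dppa3 at 1529 and 1468.

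Under RA part of the group was lower than under CT, at day 9. At day 5, 0 of the 9 were called against CT in limma and 0 had an unadjusted p below 0.05 (0.244% of all genes called either way), and at day 7 0 were called with 5 below 0.05 (5.21%). At day 9, 4 of the 9 were lower, against 3% of all genes called lower. Tcl1 stood at 49.5 and 36.9 RPM under RA and 166 and 149 under CT (-1.86 ± 0.20, adjusted p = 4.66e-07). Prdm14 stood at 38.4 and 40.5 RPM against 85.5 and 107 (-1.25 ± 0.20), Tfap2c at 59.9 and 84.2 against 155 and 184 (-1.24 ± 0.18) and Sox15 at 35.6 and 30.6 against 71.7 and 75.7 (-1.13 ± 0.19). Without the first RA library Tfap2c was -0.997 and not called. Dppa2 did not part, at 69.0 and 76.0 RPM against 87.1 and 69.9, with an interval from -0.48 to 0.27. With median centring Prdm1 (-1.08) and Dppa3 (-1.15) were called lower too.

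Under RB nearly all of the group was lower than under CT by day 9, and 5 genes were at day 7. At day 5, 0 of the 9 were called against CT in limma, with 1 (Tcl1) at an unadjusted p below 0.05 and 0.674% of all genes called either way. At day 7, 5 were lower (3.62% of all genes): Tcl1 (-2.05), Prdm14 (-1.43), Sox15 (-1.21), Prdm1 (-1.09) and Tfap2c (-1.05). The last 3 of these were at -0.86 to -0.92 and not called without the second RB library. With median centring Dppa4 (-1.24) and Dppa3 (-1.28) were called lower as well. At day 9, 8 of the 9 were lower, against 12.1% of all genes called lower. The median difference of the 9 was -2.29, beside 0.19 over all genes tested.

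At day 9 Prdm14 stood at 12.3 and 8.05 RPM under RB and 85.5 and 107 under CT (-3.14 ± 0.20, adjusted p = 1.2e-11). Tcl1 stood at 23.8 and 16.1 RPM against 166 and 149 (-2.94 ± 0.20) and Sox15 at 13.502 and 9.66 against 71.7 and 75.7 (-2.59 ± 0.19). Dppa3 stood at 301 and 274 RPM against 1529 and 1468 (-2.38 ± 0.13), Tfap2c at 36.1 and 31.7 against 155 and 184 (-2.29 ± 0.18) and Dppa4 at 47.7 and 42.7 against 213 and 212 (-2.21 ± 0.19). No library of these groups overlapped for any of the 9 genes, and the share of all genes without overlap was not counted. Prdm1 (26.2 and 33.0 RPM, -1.89 ± 0.18) and Dppa2 (23.0 and 19.9 RPM, -1.82 ± 0.18) had smaller differences. Lin28a was not called (3.57 and 1.88 RPM against 5.78 and 5.17; interval -1.94 to 0.27), except with quantile normalization (-1.44), and it stood at 1.26 to 12.6 RPM in the replicated libraries of this line.

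PGCLCs under RB also differed from cells under RA. None of the 9 was called at day 5 in limma and 0 had an unadjusted p below 0.05 (0.0421% of all genes called either way). At day 7, 1 was lower (Tcl1, -1.21, beside 1.04% of all genes), and 8 had an unadjusted p below 0.05. Prdm1 (-0.84), Prdm14 (-0.81), Dppa2 (-0.65), Dppa4 (-0.85), Dppa3 (-0.67) and Sox15 (-0.73) passed the adjusted p there but missed the fold threshold. At day 9, 8 were lower (11.7% of all genes), all but Lin28a. At day 9 Dppa2, which RA had left near the CT level, was -1.71 ± 0.18 under RB against RA (adjusted p = 1.19e-07), and Dppa4 was -1.75 ± 0.19. The calls of Prdm1 (-1.07), Tfap2c (-1.05) and Tcl1 (-1.09) against RA were each lost without 1 library: Prdm1 without the first RB library (-0.91), Tfap2c without the second RA or RB library (-0.81 and -0.96) and Tcl1 without the first RA or the second RB library (-0.88 and -0.82). The change of the RB difference from day 5 to day 9 was called for 8 of the 9 (9.54% of all genes called lower), from -1.69 for Prdm1 to -2.95 for Prdm14. These comparisons share libraries and are set side by side only.

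At day 9 the summed germ cell markers were 642 to 740 RPM under CT, 1173 to 1286 under RA and 2938 to 3332 under RB. The summed fibroblast markers were 38.2 to 95.4 RPM under CT, 103 to 184 under RA and 15.3 to 40.9 under RB, where Lum was at 0, and their part was not tested. Blood markers other than Pecam1 and Hba-a1 (Hbb-y, Hba-x, Cdh5, Ptprc) were at 0 in the CT, RA and RB libraries of that day.

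**Figure D2:**
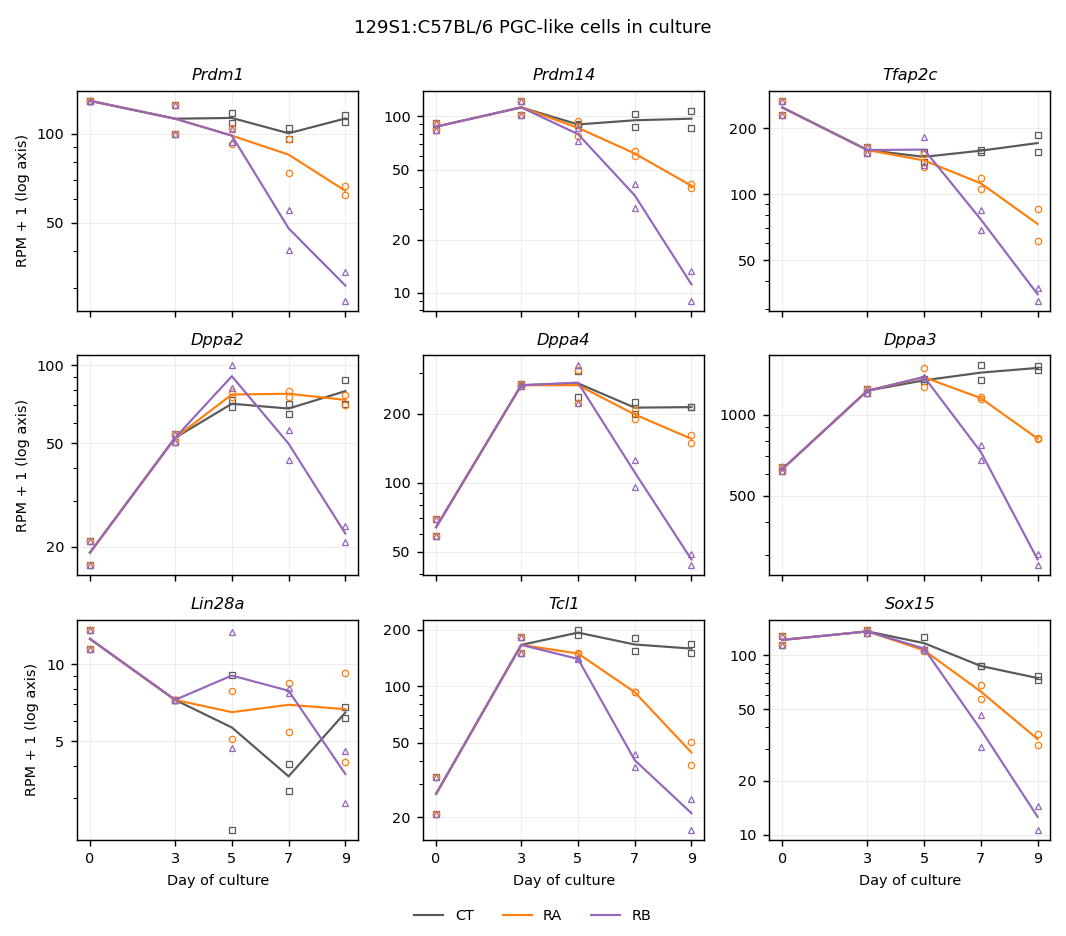
Level of each of the 9 genes in PGCLCs of the 129S1:C57BL/6 line against day of culture, as RPM + 1 on a log axis; symbols are single libraries (2 per group), lines join the group means, and days 0 and 3 are the same libraries in each line. By day 9 the RB libraries lie below the CT libraries for all 9 genes, and for Lin28a the difference was not called.

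The single 0R3B library at day 9 had 8 of the 9 genes below the RB mean of that day, at 11.9% (Dppa3, 34.2 RPM) to 81.6% (Dppa4, 36.8 RPM) of it. Lin28a was above it, at 10.0 RPM. The single libraries of the C57BL/6 line include the pairs c7RB and c7CT (day 9) and c0RB and c0CT (day 2), names the labels do not spell out. The c7RB library had 7 of the 9 genes below its c7CT partner, at 52.9% (Dppa2, 158 against 298 RPM) to 85.2% (Dppa4), with Sox15 (127.0%) and Lin28a (200.1%) above it. The c0RB library had 4 of 9 below its c0CT partner, with ratios from 63.9% (Prdm1) to 133.5% (Dppa2). With 1 library per condition these ratios have no replicate check.

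The knockout of Stra8, a retinoic acid-induced gene needed for entry into meiosis, was checked by Stra8 itself. Wild-type cells had 191.5 to 193.4 RPM at RB day 5, 1415 to 1439 at day 7 and 1717 to 1813 at day 9. The knockout libraries had 1.72 to 10.98, 29.3 to 204.1 and 77.9 to 482.9 RPM on those days, and the highest value at each was in line SK3. All knockout libraries were thus below wild type from day 5 on, and 3′-end reads outside a deleted part would still be counted.

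In Stra8-/- cells most of the 9 genes were higher than in wild type late in the RB culture. Knockout values are given in the order SK1 replicate 1, SK2, SK1 replicate 2, SK3. At CT day 3 and at RB day 5, 0 of the 9 were called in limma and 0 had an unadjusted p below 0.05 (0.00819% and 0.0164% of 12206 genes called either way). At day 7, 3 were higher (3.16% of all genes): Sox15 (87.0, 90.9, 82.5 and 77.5 RPM in knockout and 34.8 and 19.4 in wild type; 1.66 ± 0.18), Tfap2c (1.18 ± 0.16) and Tcl1 (1.17 ± 0.22). Tcl1 was at 0.82 and not called without the second wild-type library. Prdm1 (0.74), Prdm14 (0.83), Dppa2 (0.89), Dppa4 (0.60) and Dppa3 (0.59) passed the adjusted p at day 7 but missed the fold threshold. The genotypes did not overlap at day 7 in 8 of the 9 genes, all but Lin28a. The share of all genes without overlap was not counted. At day 9, 8 were higher, against 10.8% of all genes called higher. The median difference of the 9 was 1.31, beside 0.09 over all genes tested.

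At day 9 Dppa2 stood at 93.1, 103, 102 and 74.2 RPM in knockout cells and 30.2 and 21.1 in wild-type cells (1.83 ± 0.15, adjusted p = 3.1e-11). Tfap2c stood at 30.2, 24.9, 30.6 and 25.5 RPM in knockout cells and 9.23 and 7.96 in wild-type cells (1.58 ± 0.16). Sox15 stood at 28.6, 26.8, 36.8 and 34.0 RPM against 9.23 and 12.2 (1.48 ± 0.18), and Dppa4 at 216, 148, 222 and 219 against 109 and 60.4 (1.28 ± 0.16). Lin28a stood at 11.03, 10.47, 9.09 and 13.1 RPM against 2.52 and 1.405 (2.03 ± 0.48, adjusted p = 0.001). At this day the genotypes did not overlap in 8 of the 9 genes, all but Dppa3, and the share of all genes without overlap was not counted.

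Prdm14 stood at 32.8, 19.6, 43.1 and 40.2 RPM in knockout cells and 18.5 and 8.43 in wild-type cells (1.31 ± 0.23), Tcl1 differed by 1.12 ± 0.22 and Prdm1 by 1.03 ± 0.19. These called values were near the threshold. Without the second wild-type library Prdm14 was 0.78 and Dppa4 0.86. Without the first wild-type library Prdm1 was 0.87, and without SK3 Prdm1 was 0.89 and Tcl1 0.90. None of these 5 values was called. Dppa3 was the 1 gene not called at day 9, at 335, 237, 460 and 420 RPM against 255 and 203, with overlapping libraries and an interval from 0.30 to 0.96. Dppa3 (0.63) passed the adjusted p but missed the fold threshold, and it is also the source of a reporter in these lines.

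**Figure D3:**
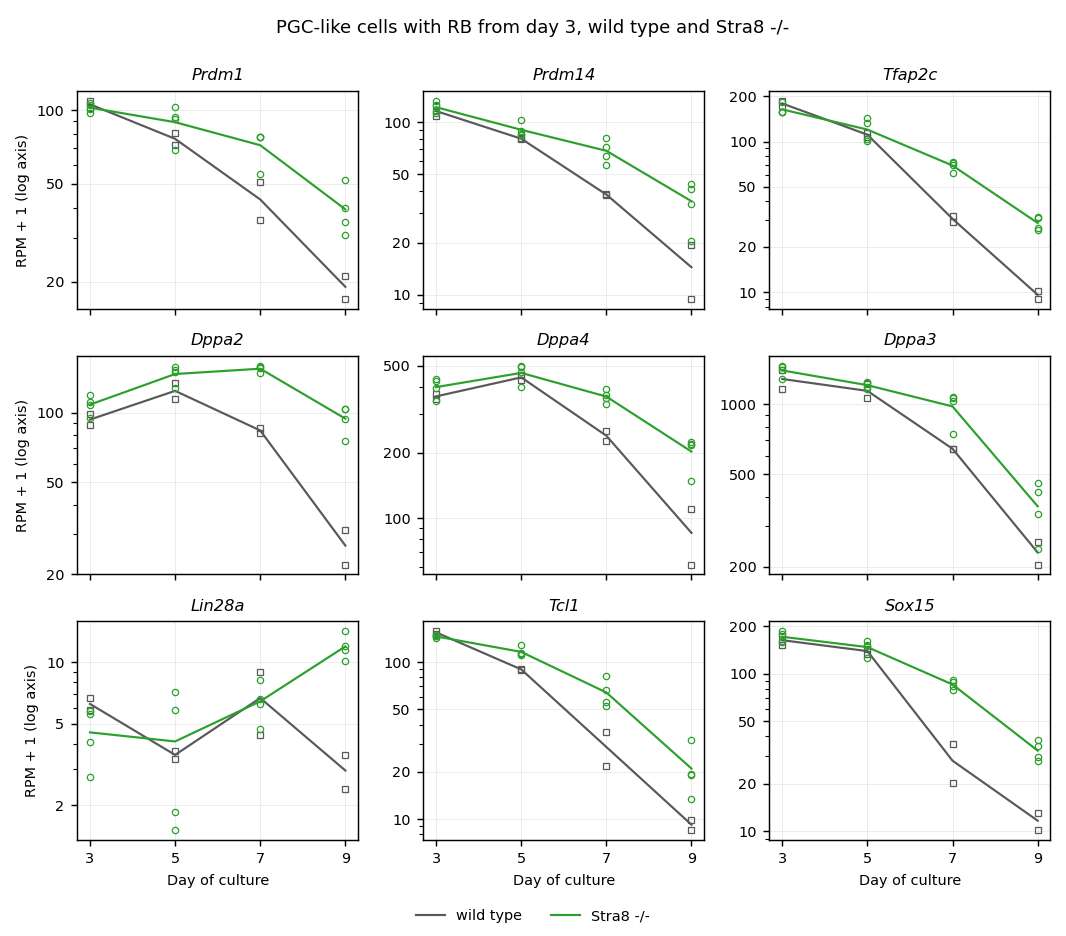
Level of each of the 9 genes in wild-type and Stra8-/- PGCLCs against day of culture, as RPM + 1 on a log axis; symbols are single libraries (2 wild-type and 4 knockout per day) and lines join the group means. The lines lie close at days 3 and 5, where no gene was called. The knockout libraries lie above wild type in 8 of 9 genes at day 7, with overlap in Lin28a. They do so in 8 of 9 genes at day 9, with overlap in Dppa3.

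The knockout difference grew with time: its change from day 3 to day 9 was called higher for 8 of the 9 genes (8.66% of all genes), all but Dppa3 (0.50). Some of these changes fell below the fold threshold on leaving out 1 day 9 library. Without the second wild-type library Prdm14 was 0.71 and Dppa4 0.72. Without the first wild-type library Prdm1 was 0.92, and without SK3 Prdm1 was 0.93 and Tcl1 0.98. Prdm1 was also below it with median centring (0.97), and Prdm1 (0.94) and Tcl1 (0.95) with a pseudocount of 5. Against their own CT day 3, wild-type cells at RB day 9 had 8 genes lower (15.9% of all genes called lower), and Lin28a was at -1.10 with no call. With median centring (-1.37) and with quantile normalization (-1.77) Lin28a was called lower. Tfap2c (-4.22 ± 0.18), Tcl1 (-4.07 ± 0.26) and Sox15 (-3.81 ± 0.20) had the largest differences. Knockout cells over the same days had 6 lower (8.34% of all genes) and 1, Lin28a, higher (1.44 ± 0.39; 25.6% of all genes). Lin28a was not called with quantile normalization (0.70) or a pseudocount of 5 (0.91). In knockout cells Tfap2c went from 162.6 ± 13.53 to 27.8 ± 3.03 RPM (SD, n = 4). Dppa4 missed the fold threshold (-0.996, adjusted p = 7.62e-08) and was called with median centring (-1.37), with the SK1 libraries averaged (-1.06) and without any 1 of 4 libraries (SK1 replicate 2 of CT day 3, and either SK1 library or SK3 of RB day 9). Dppa2 was not called: it stood at 107.2 ± 9.99 RPM at CT day 3, 153.6 ± 4.57 at RB day 7 and 93.1 ± 13.4 at RB day 9 in knockout cells, with an interval for the last against the first from -0.46 to 0.04. The summed fibroblast markers went from 143 to 156 RPM at CT day 3 to between 7.02 and 23.5 at RB day 9 in wild type, and from 118 to 172 to between 7.197 and 14.4 in knockout, and their part was not tested.

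The libraries of the Stra8 experiment fall into 10 with spike-in reads (26445 to 48450 RPM) and 14 with almost none (3.23 to 49.9 RPM), and each day's wild-type pair has 1 of each. Within the libraries with spike-in reads, knockout less wild type was 0.39 to 1.77 for the 9 genes at day 9 and -0.93 to 1.30 at day 7 (log2 scale, 1 library against 1). Within those with almost none it was 0.81 to 2.29 at day 9 and 0.56 to 2.05 at day 7 (3 against 1). With 1 wild-type library on each side these values have no replicate check, and the share over all genes was not counted. At day 9 the 6 blood and endothelial markers summed to 65.4 to 108 RPM in knockout and 21.1 to 34.4 in wild type, mostly from Pecam1, with Hbb-y, Hba-x and Ptprc at 0 in both. With a term for spike-in reads, chosen after seeing the data, the 34 calls of this experiment remained. Germ cell markers summed to 2235 to 2608 RPM in knockout and 2915 to 3447 in wild type, and their part was not tested.

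**Figure D4:**
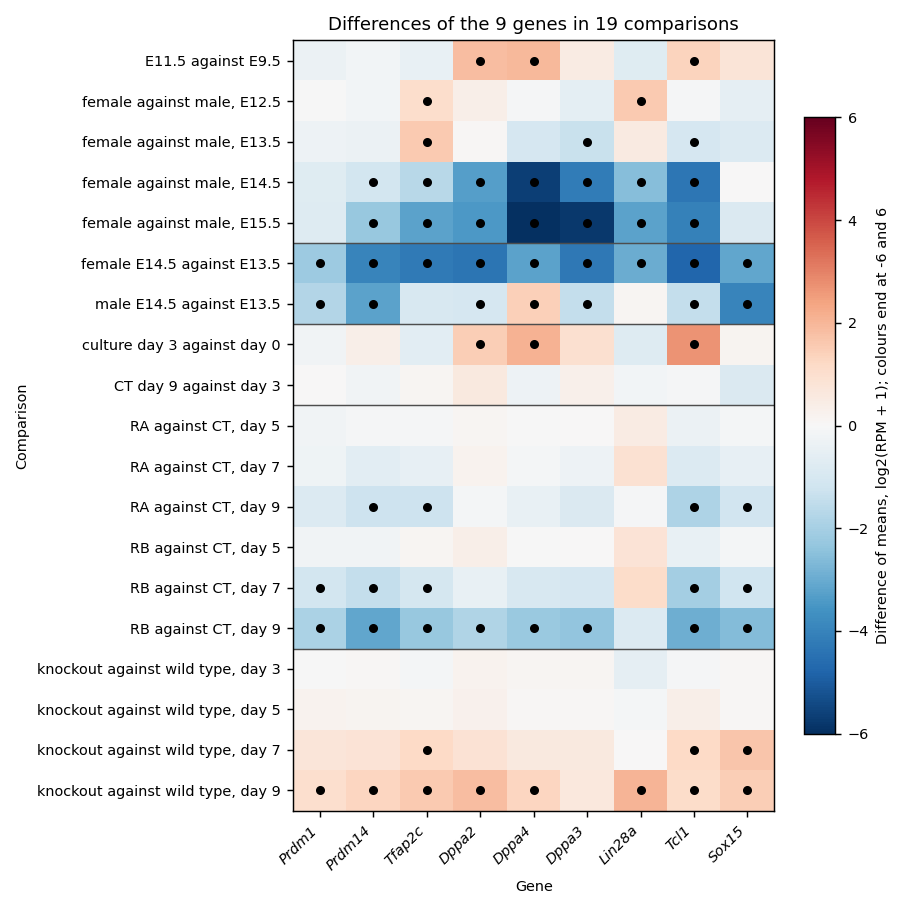
Difference between group means on the log2(RPM + 1) scale for the 9 genes (columns) in 19 comparisons (rows), red for higher and blue for lower in the group named first; dots mark a limma adjusted p below 0.05 with an absolute difference of at least 1. The colours end at 6, and 1 value (Dppa4, female against male at E15.5, -6.80) lies beyond; the female step to E14.5 and RB at day 9 are blue almost throughout, and knockout at day 9 is red.

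Genes linked to germ cell specification or pluripotency were followed as a list of 27, among them the pluripotency factors Nanog, Esrrb, Sox2 and Pou5f1. Not all of them, Otx2 among others, work together with the specification factors. At the female step to E14.5, 17 of the 27 fell and none rose (median -1.95, beside -0.08 over all genes). Of all genes, 19% fell and 16.5% rose at that step. Gdf3 (-5.15), Nanog (-4.88), Tdh (-3.70) and Acvr1 (-3.52) changed most. Under RB at day 9, 18 of 27 were lower than under CT, against 12.1% of all genes, and 3 were higher, against 24.6% (median -1.90, beside 0.19 over all genes). Those lower were led by Otx2 (-3.73), Tdh (-3.33), Nanog (-3.31) and Klf2 (-3.29). In the knockout at day 9, 13 of 26 tested were higher, against 10.8% of all genes, and none was lower, against 8.35% (median 0.98, beside 0.09), led by Esrrb (2.17), Nanog (1.92), Sox2 (1.83) and Eomes (1.80). From day 0 to day 3, by contrast, 1 rose (Zfp42, 1.07) and 1 fell (T, also called Brachyury, -3.65), beside 3.03% and 2.43% of all genes.

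Genes that Prdm1 or Prdm14 lower in specification (10, such as Dnmt3b, Uhrf1 and Hoxb1) were followed too. At the female step to E14.5, 0 of 9 tested rose and 1 fell (Dnmt3a, which encodes a DNA methyltransferase, -1.19), beside 16.5% and 19% of all genes. In males at that step Dnmt3a rose by 3.06 and Wnt5b by 1.02 (19% of all genes rose). Under RA at day 9, 7 of 9 were higher than under CT, against 13.3% of all genes, and none was lower, against 3%. The higher ones included Hoxb1 (3.84), Uhrf1 (2.15) and Wnt5b (1.80). Under RB, 4 of 9 were higher and 1 was lower (Dnmt3b, -1.32), beside 24.6% and 12.1% of all genes. In the knockout 7 of 10 were higher, among them Hoxb1 (4.25), beside 10.8% of all genes.

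The all-gene shares just given for each comparison are also the background of the lists that follow. Of 5 genes downstream of Dppa2 and Dppa4 in embryonic stem cells, 4 were tested in the 129S1:C57BL/6 line. The cleavage-stage genes Zscan4c, Zscan4d and Zscan4f were higher under RA than under CT at day 9 (3.83, 3.19 and 3.52), and were not called under RB. The meiotic gene Syce1 was higher under RB (4.56) and under RA (1.43), and lower in the knockout (-2.07). Of 6 genes of the let-7 and Lin28 axis, Lin28b was higher under RB at day 9 (1.496) and Igf2bp1 lower (-1.28), and in the knockout Igf2bp1 (1.15) and Igf2bp2 (1.24) were higher. Of the genes of the Akt axis, Pdpk1 (1.88) was higher and Akt1 (-1.15) lower under RB at day 9. Among 26 relatives of the 9 genes, Prdm9, which marks recombination sites in meiosis, had the opposite sign to Prdm1 and Prdm14: it was higher by 4.97 at the female step to E14.5 and by 5.70 under RB at day 9, and lower by 4.21 in the knockout at day 9. Of the 26, 11 were tested in the embryo and 10 in each culture experiment. At the female step to E14.5 1 rose and 3 fell, under RB at day 9 3 were higher and 3 lower than under CT, and in the knockout at day 9 1 was higher and 1 lower. Prdm16 rose in males from E13.5 to E14.5 (3.84). Sox2, Dppa5a and Lin28b stand in 2 of the lists.

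The genes whose group means followed each of the 9 most closely were taken over 30 groups on the log2 scale, among 13626 other genes, as a description; the groups share strains, reporters and control libraries. Sox15 was followed by Ctbp2 (r = 0.988), Gatsl3 (0.9799) and Mtap (0.978), and Prdm14 by Nanog (0.984), Zfp64 (0.981) and Esrrb (0.9801). Prdm1 was followed by Esrrb (0.977), Slc25a13 (0.971) and Nanog (0.965), and Tfap2c by Slc25a5 (0.973), Slc25a13 (0.968) and Sox2 (0.967). The nearest to Dppa2 were Pfkfb3 (0.963), Ooep (0.946) and Thoc6 (0.940). For Dppa4 they were Rbms2 (0.953), Ggct (0.944) and X99384 (0.943), and for Tcl1 Gadd45gip1 (0.953), Cpsf4l (0.946) and Fbxl12 (0.941). Dppa3 was followed by Shmt1 (0.943), Abcg1 (0.933) and Dctd (0.933), and Lin28a less closely by Hspe1 (0.877), Taldo1 (0.866) and Pygo2 (0.828).

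Among the 9 themselves, Prdm14 and Sox15 (r = 0.972), Prdm1 and Prdm14 (0.968), Prdm1 and Sox15 (0.953) and Prdm1 and Tfap2c (0.950) ran most alike over these groups. Dppa3 and Tcl1 followed each other (0.918). The neighbours Dppa2 and Dppa4 did so less (0.694), and Dppa4 with Sox15 (0.363) and Lin28a with Sox15 (0.120) least closely of those named here.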

How the data were processed

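Messenger RNA of 75 libraries was measured by 3′-end sequencing of cDNA amplified from 1 ng of RNA, per the labels. The submitters' processing notes name cutadapt 1.11, TopHat 1.4.1, Bowtie 1.0.1, Cufflinks 2.2.0 and the build mm10, with no roles. The deposited signal values are RPM, reads scaled so that the gene rows of each library sum to nearly the same total, and the authors' table also has 96 spike-in rows, which were left out. Depth was estimated from the value of 1 read, and 81.9 to 93.7% of low values were whole reads (tolerance 0.05). The 2777 values under 0.001 RPM were set to 0.

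Groups were compared with limma 3.58.1 (R 4.3.3) on log2(RPM + 1), fitted in each experiment over all genes with at least 5 RPM in at least 2 libraries (12567, 11873 and 12206 genes), with Benjamini-Hochberg adjustment. Differences understate the change of low genes. The test was checked on simulated data. Summaries and plots used Python 3.11.15, pandas 2.3.3, numpy 2.4.6 and matplotlib 3.10.9. Named were the 9 genes, for each the 3 genes with the highest correlation of group means, and up to 4 called genes a list, of which some are not reported here. The members and lists were chosen with earlier results of these data known. Alternatives changed the pseudocount, filter, scaling, trend, fold threshold, replicate block, samples fitted and libraries.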

Additional observations from a re-analysis of the deposited data

Results flagged for a closer look

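In 5 of the 36 groups and genes with 4 libraries, all of them knockout, 1 library lay apart from the others by more than Dixon's 95% limit, which chance passes in about 5% of cases. At RB day 7, Prdm1 stood at 53.7 RPM in the first SK1 library and at 76.6 to 76.8 in the others, and Dppa3 at 747 RPM in SK2 and 1034 to 1077 in the others. At CT day 3, Tfap2c stood at 182.8 RPM in SK2. At RB day 9, Dppa4 stood at 147.9 RPM in SK2 and 216 to 222 in the others. At RB day 5, Tcl1 stood at 127.3 RPM in the second SK1 library.

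The sex difference changed from E12.5 to E15.5, by a limma contrast of the difference itself, for Prdm14 (-2.11), Tfap2c (-4.27), Dppa2 (-3.77), Dppa4 (-6.75), Dppa3 (-5.18), Lin28a (-4.79) and Tcl1 (-3.98). The difference between RB and CT changed from day 5 to day 9 for Prdm1 (-1.69), Prdm14 (-2.95), Tfap2c (-2.38), Dppa2 (-2.16), Dppa4 (-2.21), Dppa3 (-2.42), Tcl1 (-2.48) and Sox15 (-2.49). The difference between knockout and wild type changed from day 3 to day 9 for Prdm1 (1.08), Prdm14 (1.23), Tfap2c (1.71), Dppa2 (1.62), Dppa4 (1.14), Lin28a (2.54), Tcl1 (1.21) and Sox15 (1.404). Of these, Prdm1, Prdm14, Dppa4 and Tcl1 fell below the fold threshold on leaving out 1 day 9 library.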

How the results depend on the processing

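Of 124 called differences of the 9 genes, none reversed under any alternative run. Calls remained in 120 with a pseudocount of 0.1, 107 with 5, 122 without the filter, 122 with median centring, 121 with quantile normalization and 122 without the trend, and 26 were lost on leaving out at least 1 library. Calls were gained in 3 with a pseudocount of 0.1, 11 with median centring, 5 with quantile normalization, 1 with the 20 RPM filter, 2 with the compared groups fitted alone, 1 with the SK1 libraries averaged, 31 with the adjusted p alone and 18 on leaving out at least 1 library. With the adjusted p alone, without the fold threshold, 5 genes passed from day 0 to day 3, 1 from CT day 3 to day 9, 7 between RA and CT, 15 between RB and RA and 17 between knockout and wild type, where 3, 0, 4, 9 and 11 were called with it; the last 3 are summed over days.

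Correlations of the deviations of same-numbered libraries ran from -0.070 to 0.054 for sorted germ cells, from -0.072 to 0.239 for 129S1:C57BL/6 cultures and from -0.005 to 0.129 for the Stra8 comparison. Of the pairs of groups, 0 of 55, 11 of 55 and 8 of 28 exceeded 0.1. Not every pair did, so the numbers were not taken as pairs, a rule that cannot exclude shared preparation. Number 1 of the knockout holds SK1, SK2 and SK3, so the check mixes lines there. With the replicate block 123 of 124 calls remained, and Sox15 from E12.5 to E13.5 in females (-1.09) was lost. Low counts limit Lin28a and Sox15 (below 3 reads in 3 libraries each), Tfap2c (2), Prdm14 (1) and Dppa2 (1).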
